A study of Mus musculus with 12 samples.

Results

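A set of 39 genes of regulated secretion was followed in Neuro-2a, a mouse neuroblastoma line from ATCC. They were taken as a list of known vesicle release, vesicle membrane, granin and prohormone processing genes, and all 39 were found among the 55401 gene identifiers counted in each library. Of these, 34 were among the 17569 genes that passed the filter on low counts and were tested. The data are 12 RNA-seq libraries in 3 groups of 4, each with replicates numbered 1 to 4. All groups received 1 µg of a GFP plasmid (pCAGGs-linkB-IRES-GFP) by Lipofectamine, together with plasmids that carry artificial microRNAs in a miR30 backbone under the CAG promoter. The control group (miScramble) received 3 µg of a scramble plasmid. The miRbmx group received a pool of 3 plasmids against Rbmx, and the miRbmxl1 group a pool of 2 plasmids against Rbmxl1. The labels give both 1 µg for each of these plasmids and 3 µg as the total per condition, and what made up the rest of the Rbmxl1 mixture was not given. GFP-positive cells were sorted 48 h after transfection, so every group was selected for the GFP plasmid, which is separate from the microRNA plasmids. Ribosomal RNA was depleted from total RNA before stranded libraries were made. The labels call the libraries biological replicates without saying whether the cultures were separate. P-values here therefore measure the spread between these libraries, and in the main fit the spread left after the replicate number is accounted for. The design compares transcriptomes after knockdown of Rbmx, which encodes a nuclear RNA-binding protein, or of its relative Rbmxl1.

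Neurons and neuroendocrine cells store transmitters in small synaptic vesicles, and peptides and amines in dense-core granules. Fusion of both kinds is driven by SNARE proteins (syntaxin 1, SNAP25 and the synaptobrevins), which are primed by Munc13 proteins and clamped and triggered by complexins and synaptotagmins. Granins fill the dense-core granule and, like other peptide precursors, are cut by the prohormone convertases and trimmed by carboxypeptidase E. Neuroblastoma lines derive from the sympathetic lineage, whose mature cells store catecholamines through the vesicular monoamine transporters.

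Each library held between 43.1 M and 52.2 M reads assigned to genes. Levels are given as CPM (gene counts scaled to a common library size), in which 3 counts corresponded to 0.0557 to 0.0698. Rbmx averaged 67.7 ± 7.15 CPM (SD, n = 4) in miScramble, 27.6 ± 4.96 in miRbmx and 86.3 ± 3.51 in miRbmxl1. Rbmxl1 averaged 34.1 ± 2.21, 36.1 ± 2.11 and 14.2 ± 1.99 CPM, so each pool lowered its own target, and Rbmx was higher in miRbmxl1 by 0.36 ± 0.07 (log2, SE, adjusted p = 0.0165). Of 8 sympathetic markers, 7 were high enough to test. The regulators Phox2a and Hand2 were read at 217 and 348 CPM in miScramble and tyrosine hydroxylase (Th) at 17.5 CPM. The summed markers of fibroblasts, of glia and of blood and endothelium lay at 0.975 to 2.98, 12.9 to 19.96 and 5.73 to 8.72 CPM over the 12 libraries, and 1 of 5, 3 of 6 and 2 of 5 of them were high enough to test. Of these tested markers, 0 were called in either knockdown by edgeR or DESeq2, with 1 at an unadjusted p under 0.05 in each. Of all genes, edgeR called 8.35% in miRbmx and 4.46% in miRbmxl1, and DESeq2 11.5% and 7.28%. Among their defining genes, Aqp4 and Hbb-bs had no count in any library.

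The cAMP response element, TGACGTCA, is bound by CREB-family factors and is known from granin promoters, and was therefore looked for in the genes' own start regions. RefSeq windows (GRCm38.p6) from 250 bases before to 50 bases after a start were at hand for 32 of the 39 genes. The element, which reads the same on both strands, was in the windows of 5 of these 32 genes (15.6%), and in those of 549 of all 27025 genes in the table (2.03%), or 588 of all 32851 windows (1.79%). These 5 stretches are shown because granin, processing, transporter and synapsin genes share the element. Since it was chosen from knowledge of granin promoters, its share here is a description of these genes and not an independent observation. Each reads 5′ to 3′ on the gene's strand, with the element in capitals and 25 bases on either side, except that the Slc18a2 stretch ends with the element, which spans the start.
Chgb, chr2:132781545-132781602, plus strand: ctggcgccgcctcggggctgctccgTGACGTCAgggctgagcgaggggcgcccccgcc
Scg2, chr1:79440062-79440119, minus strand: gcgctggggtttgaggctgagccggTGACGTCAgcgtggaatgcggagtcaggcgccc
Pcsk1, chr13:75089754-75089811, plus strand: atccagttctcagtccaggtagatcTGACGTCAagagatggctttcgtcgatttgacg
Slc18a2, chr19:59260849-59260881, plus strand: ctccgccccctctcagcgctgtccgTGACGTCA
Syn1, chrX:20921045-20921102, minus strand: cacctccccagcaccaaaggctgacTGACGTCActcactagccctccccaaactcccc
The first base of the element lay 72, 68, 78, 4 and 159 bases before the start of Chgb, Scg2, Pcsk1, Slc18a2 and Syn1. The shorter core, TGACG or its complement CGTCA, which every full element also holds, was in windows of 15 of the 32 genes (46.9%) and in those of 23.05% of all genes, or 20.8% of all windows. Among the genes whose level changed in a knockdown, no window was at hand for Vgf and Snap25. In the shorter span of 100 bases before the start, those of Unc13a and of one Rab3a start held only the short core, shown in capitals, and those of Pcsk1n, shown for comparison, of Cplx1 and of the other Rab3a start held neither, though the full Cplx1 window holds the short core.
Unc13a, chr8:71671758-71671857, minus strand: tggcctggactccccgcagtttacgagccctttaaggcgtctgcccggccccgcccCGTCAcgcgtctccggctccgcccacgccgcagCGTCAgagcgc
Rab3a, chr8:70754603-70754702, plus strand: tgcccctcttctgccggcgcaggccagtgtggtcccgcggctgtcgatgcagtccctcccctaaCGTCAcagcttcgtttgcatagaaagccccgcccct
Pcsk1n, chrX:7919722-7919821, plus strand: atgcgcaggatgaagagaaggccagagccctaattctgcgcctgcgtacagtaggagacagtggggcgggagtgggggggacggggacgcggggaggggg
Of the 5 genes with the full element, Slc18a2 fell in both knockdowns, Chgb, Scg2 and Syn1 were tested and not called, and Pcsk1 was too low to test. A match describes these letters and not a bound site.

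Levels were compared between genes as CPM per kilobase of exon in miScramble (mean ± SD, n = 4). The 3 highest genes were granins or peptide precursors. Vgf, a precursor of several neuropeptides, was highest at 258 ± 48.9, followed by Chgb (chromogranin B) at 147 ± 45.3 and Scg3 (secretogranin III) at 104 ± 9.13. The spreads of Chgb and Scg3 overlap, so their order is not resolved. Scg2 stood at 90.5 ± 10.7, Pcsk1n, which encodes the convertase inhibitor proSAAS, at 78.9 ± 10.5, and Chga (chromogranin A) at 50.4 ± 3.12. Of the vesicle membrane proteins, the SV2 protein gene Sv2c was highest at 96.6 ± 4.99, which is within the spread of Scg3 and Scg2. By plain CPM it took 16.0% of the summed reads of all 39 genes, against 13.1% for Vgf and 6.86% for Chgb.

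Among the release machinery genes, some lay above the lower granins. The calcium sensor gene Syt4 reached 69.4 ± 9.94 CPM per kilobase and the complexin gene Cplx1 61.8 ± 12.3. Snap25 stood at 27.1 ± 3.25, Vamp2 (synaptobrevin 2) at 24.3 ± 0.58 and carboxypeptidase E (Cpe) at 23.7 ± 1.61, values whose spreads overlap or nearly touch. The vesicular monoamine transporter Slc18a2 (VMAT2) was at 9.61 ± 1.89. At the bottom of the tested genes were Slc18a1 (VMAT1) at 0.377, the convertase gene Pcsk2 at 0.293 and Rab3b at 0.222.

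Within pairs of related genes of the set, the same member led in nearly every library. Per kilobase, Vamp2 exceeded Vamp1 by 15.9 ± 3.31 times in miScramble, Sv2c exceeded Sv2a by 8.42 ± 0.76 times and Slc18a2 exceeded Slc18a1 by 25.8 ± 4.84 times (mean ratio ± SD, n = 4). Each of these leads held in 12 of 12 libraries. They hold within the set only. Outside it, Vamp3 was at 26.6 CPM per kilobase in miScramble, above Vamp2 at 24.3, while Vamp4 was at 7.34 and Vamp8 at 0.601. Rab3c, a small GTPase of secretory vesicles, was 2.13 ± 0.08 times Rab3a in miScramble, and the ratio reached as low as 1.41 over all 12 libraries. Cplx2 was 0.611 ± 0.178 of Cplx1 and below it in all 12. Syt11 exceeded Syt1, the fast calcium sensor of synaptic vesicles, in 11 of 12.

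A total of 5 genes were too low to test. Slc18a3, the vesicular acetylcholine transporter, had no count in any library, where an expected level of up to about 3 counts in each is not excluded. Pcsk1, a main granin convertase, had 1 count in all. Rims1, an active zone scaffold, had 2 counts in total and Cadps, a dense-core granule priming factor, 12. Sv2b had 1 to 7 counts per library. Relatives outside the set were present for some of these, such as Rims2 at 20.1 and the convertases Pcsk6 and Furin at 26.7 and 10.5 CPM per kilobase in miScramble, while Cadps2 had at most 1 count in any library.

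**Figure D1:**
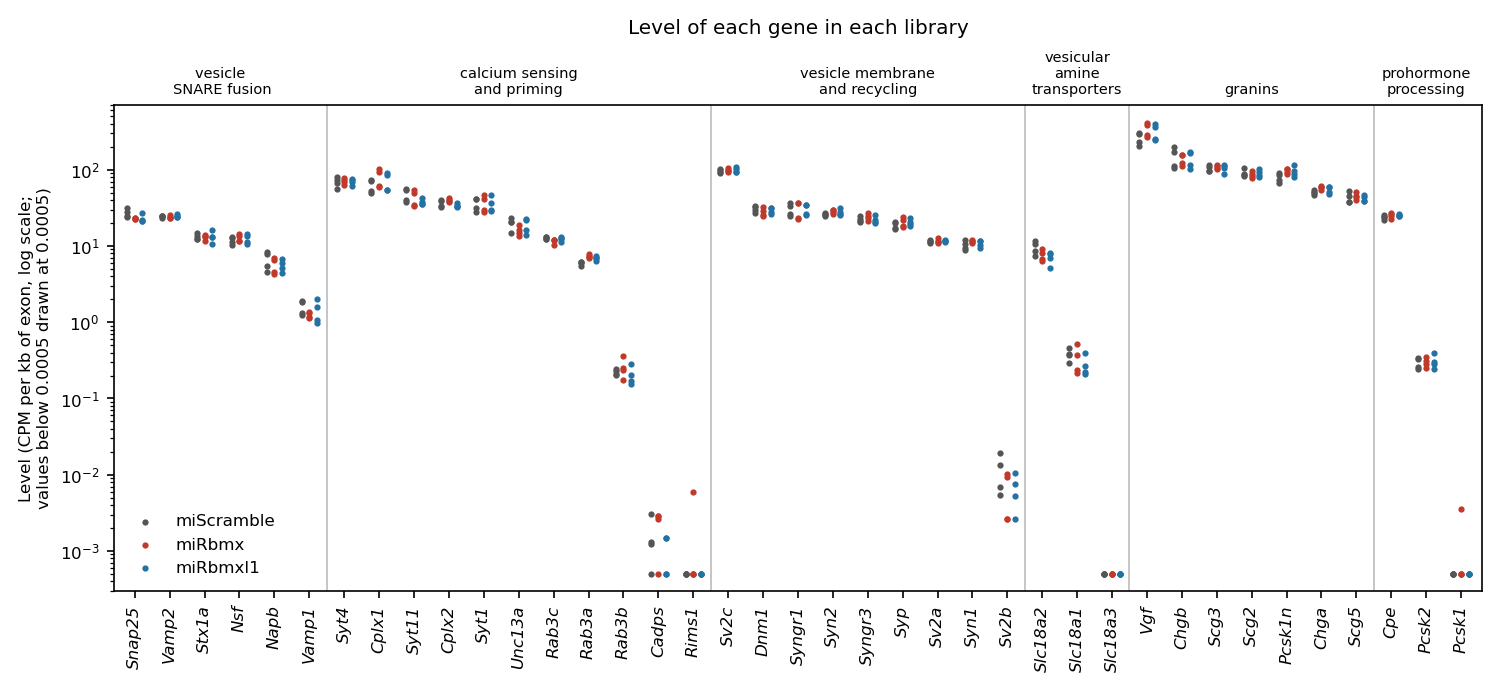
Level of each of the 39 genes in miScramble, miRbmx and miRbmxl1 as CPM per kilobase of exon on a log axis, grouped by role, with a point for each of the 12 libraries. Vgf, Chgb and Scg3 lie highest, at 258, 147 and 104 in miScramble, followed by Sv2c at 96.6, and Slc18a3, with no count in any library, is drawn at the bottom of the axis.

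Against miScramble, 7 of the 34 tested genes were called in miRbmx by edgeR's quasi-likelihood test with Benjamini-Hochberg adjustment and the replicate number as a block. The share was 20.6%, against 8.35% of all 17569 genes, or 13.1% of the genes at 10 CPM or more, where 7 of 31 of the set (22.6%) were called. By direction, 4 genes rose and 3 fell, beside 4.16% of all genes higher and 4.19% lower. Both granule peptide precursors Vgf and Pcsk1n, the complexin Cplx1 and the GTPase Rab3a rose, and Snap25, the priming factor Unc13a and the amine transporter Slc18a2 fell. All changes were small, from 0.794-fold for Slc18a2 to 1.30-fold for Vgf. The median log2 difference of the 34 was 0.028 (20 above 0, 14 below), beside a median of -2.19e-05 over all tested genes. In 18 of the 34, all 4 replicate numbers differed in the same direction, as did 34.5% of all genes.

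Those calls rest on the block. Without it, 0 of the 34 were called in miRbmx (0.00569% of all genes), the lowest adjusted p was 0.278, and 4 had an unadjusted p under 0.05. DESeq2 with the block called 10 of the 34, and 11.5% of all genes. Fitted on replicates 1 and 2 alone, edgeR called 0 of the 34 (0.0230% of all genes), and on replicates 3 and 4 alone it called 10 (10.1% of all genes). The count was 4 without miScramble replicate 1, 3 or 4, without miRbmx replicate 2 or 3, and without miRbmxl1 replicate 4, which enters through the shared estimate of spread. Vgf, Pcsk1n, Cplx1 and Slc18a2 were called in 12 of 12 fits that left out a single library, Unc13a in 5, Rab3a in 4 and Snap25 in 2.

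In miRbmxl1, 4 of the 34 genes (11.8%) were called by the same test, against 4.46% of all genes, or 7.15% at 10 CPM or more, where the set gave 4 of 31 (12.9%). Vgf and Pcsk1n rose, and Snap25 and Slc18a2 fell, 2 genes in each direction, beside 2.25% of all genes higher and 2.20% lower. The median log2 difference was -0.004, with 16 genes above 0 and 18 below. All 4 replicate numbers agreed in direction for 10 of the 34, and for 25.9% of all genes. Without the block 0 were called (0.00569% of all genes), with a lowest adjusted p of 0.495 and 4 genes at an unadjusted p under 0.05, and DESeq2 with the block called 6 (7.28% of all genes). On replicates 1 and 2 alone 0 were called (0.172% of all genes), and on replicates 3 and 4 alone 6 (5.53%). The count was 1, that of Slc18a2, without miScramble replicate 1 or 4 or miRbmxl1 replicate 1, and 2 without miScramble replicate 2 or 3 or miRbmxl1 replicate 3 or 4. Both knockdowns share the miScramble libraries, so their values stand side by side below and do not support each other. Fewer cells with a transcript and less transcript per cell cannot be told apart in these bulk libraries.

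**Figure D2:**
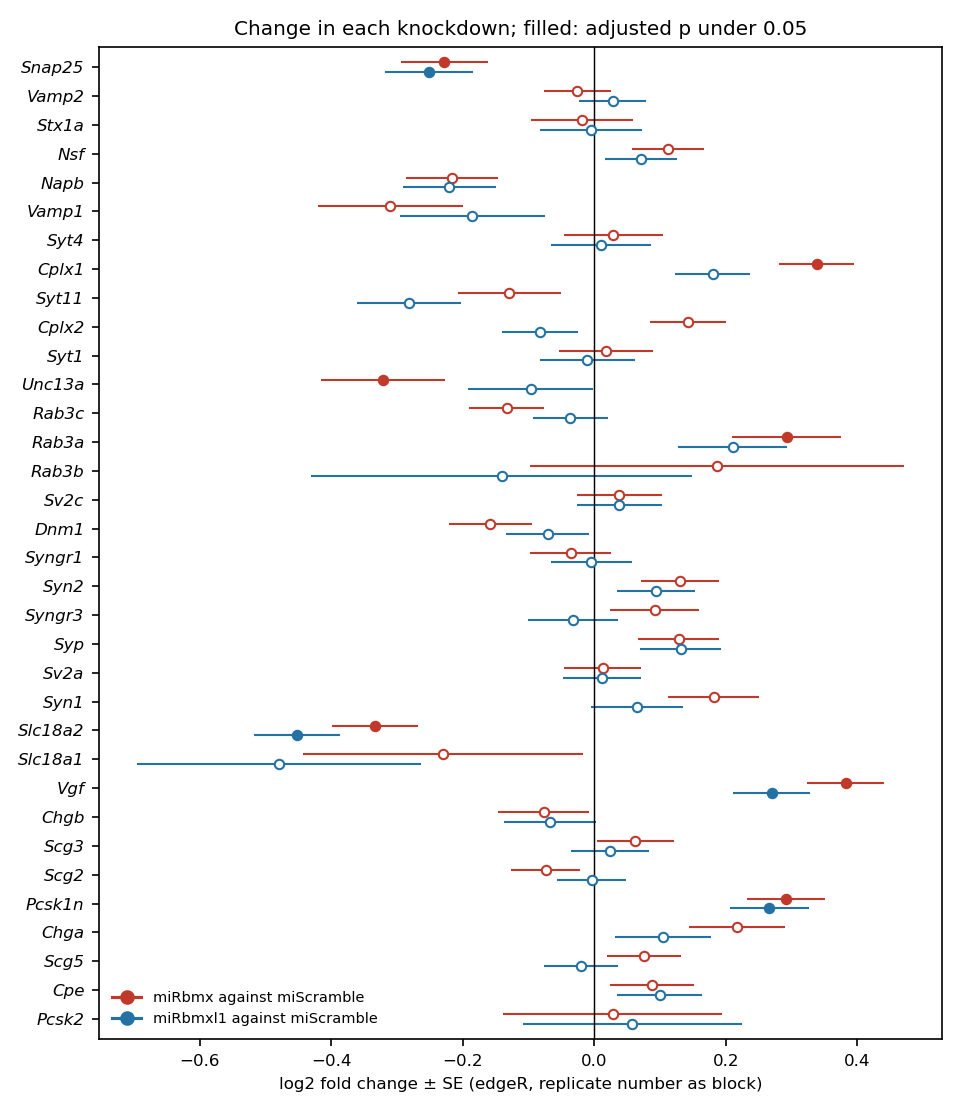
Log2 difference from miScramble (horizontal axis, bars are standard errors) of the 34 tested genes in miRbmx and in miRbmxl1, grouped by role. Filled symbols mark the 7 genes called in miRbmx and the 4 called in miRbmxl1, and points range from -0.48 (Slc18a1 in miRbmxl1) to 0.38 (Vgf in miRbmx).

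Both called granins rose in both knockdowns. Vgf (ENSMUSG00000037428, chromosome 5, 137026392 to 137033351, plus strand, GRCm38) was read at 608, 680, 901 and 878 CPM in miScramble replicates 1 to 4, at 797, 851, 1214 and 1148 in miRbmx, and at 742, 725, 1196 and 1072 in miRbmxl1. Each knockdown library was above the scramble library of the same number, while the groups as wholes overlapped because replicates 3 and 4 were higher in every group. The log2 difference was 0.38 ± 0.06 (SE, adjusted p = 0.00357) in miRbmx and 0.27 ± 0.06 (adjusted p = 0.0201) in miRbmxl1. Without the block these adjusted p were 0.499 and 0.768.

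Pcsk1n (ENSMUSG00000039278, chromosome X, 7919822 to 7924410, plus strand) encodes proSAAS, an inhibitor of the prohormone convertase encoded by Pcsk1, which itself was not detected beyond 1 count. Its CPM were 160, 148, 198 and 187 in miScramble, 202, 192, 224 and 226 in miRbmx, and 194, 178, 212 and 251 in miRbmxl1. Again all 4 numbers rose in both knockdowns and the groups overlapped. The log2 difference was 0.29 ± 0.06 (adjusted p = 0.0110) and 0.27 ± 0.06 (adjusted p = 0.0239). On the opposite strand, exons of Eras overlap 6.16% of its exon bases, and the strand setting of the counting was not given.

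The other 5 granins were not called by edgeR. DESeq2 called Chga in miRbmx (adjusted p = 0.0404). Chga was at 141, 150, 130 and 136 CPM in miScramble, 149, 171, 162 and 164 in miRbmx, and 143, 132, 162 and 161 in miRbmxl1, a log2 difference of 0.22 ± 0.07 (adjusted p = 0.0751) and 0.10 ± 0.07 (adjusted p = 0.463). Chgb was at 474, 539, 287 and 307 CPM in miScramble, at 425, 424, 303 and 332 in miRbmx, and at 468, 454, 281 and 314 in miRbmxl1. For Chgb the replicate number separated the libraries and the groups overlapped. Its miRbmx difference was -0.24 when fitted on replicates 1 and 2 alone and 0.09 on replicates 3 and 4 alone. Scg2, Scg3 and Scg5 had log2 differences from -0.07 to 0.08 in miRbmx and from -0.02 to 0.02 in miRbmxl1. Over the 7 granins the medians were 0.076 and 0.024.

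Of the processing enzymes, Cpe was read at 56.6, 61.7, 66.9 and 61.7 CPM in miScramble, 59.6, 70.0, 67.8 and 65.1 in miRbmx, and 69.6, 64.6, 64.3 and 65.6 in miRbmxl1. The groups overlapped and the log2 differences were 0.09 ± 0.06 (adjusted p = 0.432) and 0.10 ± 0.06 (adjusted p = 0.426). Pcsk2 was at 2.31 ± 0.396 CPM (SD, n = 4) in miScramble and differed by 0.03 and 0.06.

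Slc18a2 (ENSMUSG00000025094, chromosome 19, 59260896 to 59296012, plus strand) loads monoamines into vesicles. It was read at 60.6, 56.2, 45.0 and 39.2 CPM in miScramble, 47.9, 42.2, 35.6 and 33.1 in miRbmx, and 41.8, 41.2, 36.8 and 26.9 in miRbmxl1. Every knockdown library lay below the scramble library of its number, and the groups overlapped because replicates 3 and 4 were lower throughout. The log2 difference was -0.33 ± 0.07 (adjusted p = 0.00952) in miRbmx and -0.45 ± 0.07 (adjusted p = 0.00304) in miRbmxl1, or 0.496 and 0.495 as adjusted p without the block. It was called in 22 of the 24 alternative fits for miRbmxl1 and in 21 of 24 for miRbmx. Its relative Slc18a1, at 2.07, 2.51, 1.58 and 1.99 CPM in miScramble, 1.99, 2.76, 1.28 and 1.16 in miRbmx, and 2.10, 1.45, 1.14 and 1.21 in miRbmxl1, was not called. Its differences of -0.23 ± 0.21 (adjusted p = 0.546) and -0.48 ± 0.22 (adjusted p = 0.229) carried wider standard errors than those of Slc18a2.

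Among the 6 SNARE and SNARE-recycling genes, Snap25 (ENSMUSG00000027273, chromosome 2, 136713453 to 136782428, plus strand), the plasma membrane SNARE, was called. It was read at 188, 214, 170 and 165 CPM in miScramble, 156, 156, 159 and 154 in miRbmx, and 142, 185, 148 and 144 in miRbmxl1. All miRbmx libraries were below all miScramble libraries, while miRbmxl1 replicate 2 lay within the scramble range. Such a gap between miRbmx and miScramble was seen in 3 of the 34 genes (Snap25, Rab3a and Rab3c, 8.82%), and in 8.07% of all genes. The log2 difference was -0.23 ± 0.07 (adjusted p = 0.0464) and -0.25 ± 0.07 (adjusted p = 0.0445), close to the threshold, and each was called in 2 of the 12 fits without a single library. Fitted on replicates 1 and 2 alone, the miRbmx difference was -0.35, and on replicates 3 and 4 alone it was -0.11.

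The other SNARE genes were not called by edgeR, while DESeq2 called Vamp1 and Napb in miRbmx (adjusted p = 0.0471 and 0.0470). Vamp1 averaged 16.0 ± 3.53 CPM in miScramble and 12.7 ± 1.10 in miRbmx, a difference of -0.31 ± 0.11 (adjusted p = 0.0921). Napb, the neuronal SNAP that recycles SNAREs with the ATPase Nsf, was lower in 4 of 4 numbers of both knockdowns, by -0.22 ± 0.07 in each (adjusted p = 0.0691 and 0.0860). Stx1a, Vamp2 and Nsf had differences from -0.03 to 0.11 in miRbmx. The class medians were -0.121 in miRbmx and -0.095 in miRbmxl1.

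In the priming and calcium-sensing class, edgeR called 3 of 9 tested genes in miRbmx (8.35% of all genes) and 0 in miRbmxl1 (4.46% of all genes), where 3 of the 9 had an unadjusted p under 0.05 and DESeq2 called 2 (Cplx1 and Syt11). Cplx1 (ENSMUSG00000033615, chromosome 5, 108518554 to 108550024, minus strand), which clamps assembled SNAREs, was read at 110, 115, 160 and 157 CPM in miScramble, 132, 134, 226 and 203 in miRbmx, and 118, 119, 201 and 186 in miRbmxl1. All knockdown libraries were above the scramble library of their number, and the groups overlapped. The log2 difference was 0.34 ± 0.06 (adjusted p = 0.00620) in miRbmx and 0.18 ± 0.06 (adjusted p = 0.0851) in miRbmxl1.

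Rab3a (ENSMUSG00000031840, chromosome 8, 70754679 to 70758677, plus strand) is a GTPase that recruits effectors to secretory vesicles. Its CPM were 13.8, 13.8, 12.3 and 13.5 in miScramble, 15.4, 15.9, 17.5 and 16.4 in miRbmx, and 16.4, 15.5, 15.5 and 14.3 in miRbmxl1. All 8 knockdown libraries were above all 4 scramble libraries. Rab3a was the single gene of the 34 without overlap in miRbmxl1 (2.94%), against 5.67% of all genes. The log2 difference was 0.29 ± 0.08 (adjusted p = 0.0403) in miRbmx and 0.21 ± 0.08 (adjusted p = 0.165) in miRbmxl1. Exons of Mpv17l2 on the opposite strand overlap 1.30% of its exon bases.

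Unc13a (ENSMUSG00000034799, chromosome 8, 71624417 to 71671757, minus strand) encodes Munc13-1, which primes vesicles for fusion. It was read at 296, 260, 262 and 188 CPM in miScramble, 205, 237, 187 and 172 in miRbmx, and 206, 287, 279 and 175 in miRbmxl1. Each miRbmx library was below its scramble counterpart, by a log2 difference of -0.32 ± 0.09 (adjusted p = 0.0469), whereas miRbmxl1 was lower in 2 numbers and higher in 2 (-0.10 ± 0.09, adjusted p = 0.620). Exons of Colgalt1 overlap 3.92% of its exon bases on the opposite strand.

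The synaptotagmins and the other priming genes were not called by edgeR. Syt11, a synaptotagmin without calcium binding, was at 287, 288, 206 and 196 CPM in miScramble, 258, 284, 181 and 174 in miRbmx, and 221, 198, 183 and 186 in miRbmxl1. It was lower in all 4 numbers of both knockdowns, by -0.13 ± 0.08 (adjusted p = 0.330) and -0.28 ± 0.08 (adjusted p = 0.0536). In miRbmxl1 it was called in 5 of 24 alternative fits, DESeq2 among them (adjusted p = 0.0142). Its miRbmxl1 difference was -0.44 ± 0.09 on replicates 1 and 2 alone and -0.13 ± 0.06 on replicates 3 and 4 alone. Syt4, at 219, 265, 286 and 310 CPM in miScramble, 246, 266, 302 and 283 in miRbmx, and 283, 237, 267 and 294 in miRbmxl1, overlapped in all groups and differed by 0.03 and 0.01. Rab3b, the lowest tested gene, had 0.851, 0.744, 0.817 and 0.721 CPM in miScramble, 0.613, 1.27, 0.825 and 0.898 in miRbmx, and 0.724, 0.546, 0.605 and 0.993 in miRbmxl1, and a standard error of 0.28 in miRbmx. Rab3c averaged 153 ± 5.98, 140 ± 9.46 and 150 ± 10.9 CPM in miScramble, miRbmx and miRbmxl1.

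**Figure D3:**
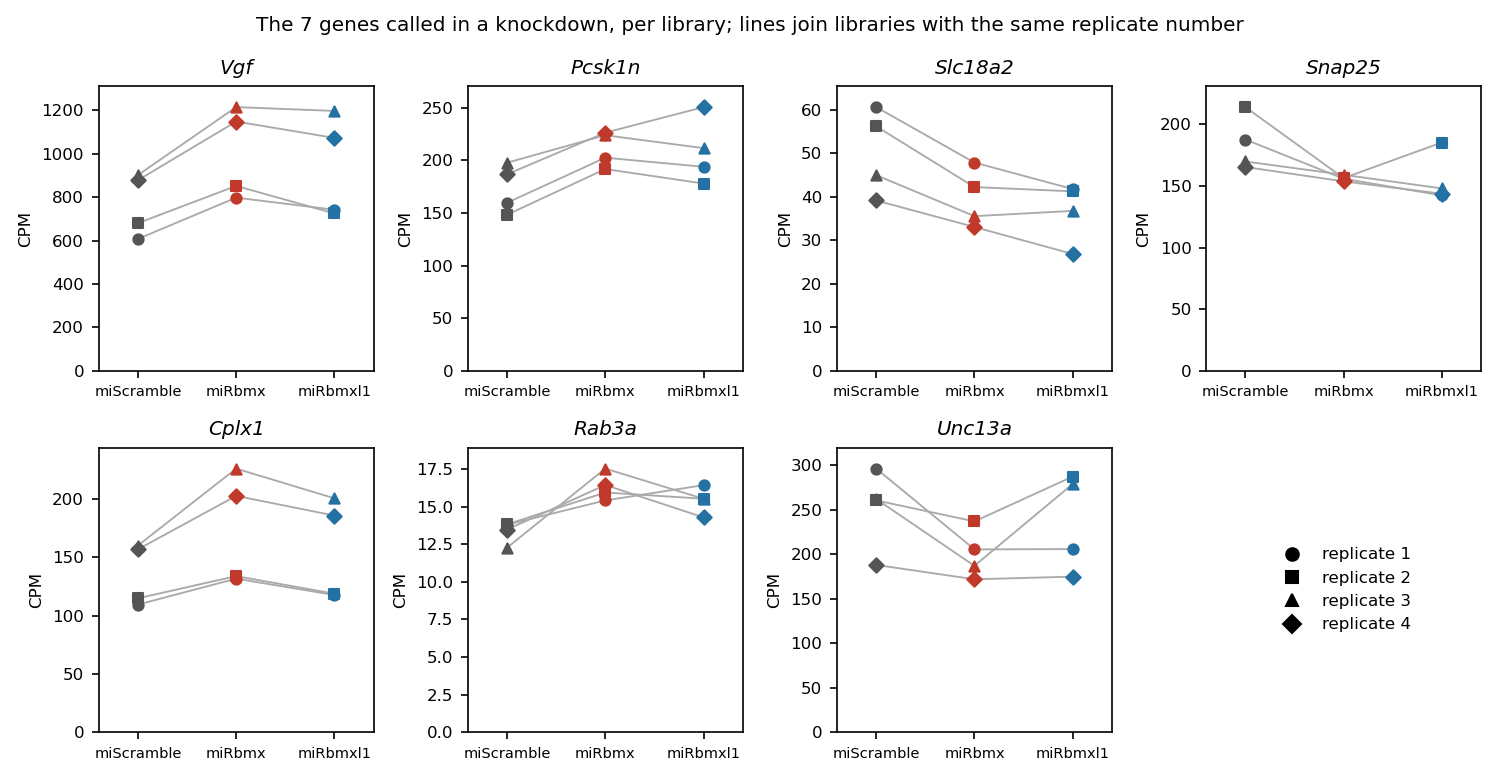
CPM of the 7 called genes in each of the 12 libraries, 1 panel per gene from 0, with points for replicates 1 to 4 in each group and lines that join the same number across groups. In Vgf and Cplx1 each knockdown point lies above the miScramble point of its number, and in Slc18a2 below it, with the lines at different heights. In Rab3a the miScramble points lie below all knockdown points.

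No vesicle membrane or recycling gene was called in either knockdown by edgeR (0 of 8 tested, with 3 and 1 at an unadjusted p under 0.05, and 0 by DESeq2), beside 8.35% and 4.46% of all genes. Sv2c, the SV2 form that leads the class, was at 904, 966, 889 and 990 CPM in miScramble, 947, 1026, 958 and 917 in miRbmx, and 1042, 894, 909 and 1005 in miRbmxl1. The groups overlapped and the difference was 0.04 ± 0.07 in each (adjusted p = 0.764 and 0.803). Differences in the class ran from -0.16 (Dnm1, the dynamin of vesicle fission) to 0.18 (Syn1, a synapsin that tethers vesicles) in miRbmx, and from -0.07 to 0.13 (Syp, synaptophysin) in miRbmxl1.

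The knockdowns were also compared with each other. None of the 34 genes was called between miRbmx and miRbmxl1 by edgeR, against 0.0114% of all genes (0.00569% higher and 0.00569% lower in miRbmx), with 3 genes at an unadjusted p under 0.05 and 0 called by DESeq2 (0.0569% of all genes). The lowest p was that of Cplx2, a complexin, with 196 ± 10.7 CPM in miRbmx and 168 ± 9.16 in miRbmxl1, a log2 difference of 0.23 ± 0.06 (adjusted p = 0.859) with no overlap of groups. That was the single gene of the 34 without overlap, against 1.12% of all genes. Cplx1, Rab3a and Unc13a, which edgeR called in miRbmx and not in miRbmxl1, were therefore not shown to differ between the knockdowns.

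With the number tested in the same fit, 18 of the 34 genes (52.9%) were called, against 35.3% of all genes, and against 47.6% at 10 CPM or more, where the set gave 18 of 31 (58.1%). What the number stands for was not given in the labels. The share of reads outside features, among reads in genes and outside features, was 36.3% to 39.03% in replicates 1 and 2 and 39.7% to 42.6% in replicates 3 and 4. It moved with the number, and its part in these levels was not tested. In 12 genes the libraries of replicates 1 and 2 did not overlap those of replicates 3 and 4, with 4 genes higher and 8 lower in the latter. Such a gap was found in 20.0% of all genes (9.40% higher and 10.6% lower).

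The largest F values were those of Cplx1 (61.1, adjusted p = 7.8e-07), Vgf (43.6, adjusted p = 3.81e-06) and Chgb (38.6, adjusted p = 7.03e-06). Averaged over the groups, replicates 1 to 4 gave 120, 123, 196 and 182 CPM for Cplx1 and 716, 752, 1104 and 1033 for Vgf. Chgb went the other way, with 456, 472, 290 and 318. Syt1 (363, 347, 241 and 248) and Syngr1, a synaptogyrin (173, 168, 122 and 116), were also lower in replicates 3 and 4, and Napb (31.4, 35.6, 48.5 and 50.7) was higher. So granins did not share a direction across numbers: Vgf differed by 0.54 and Chgb by -0.61 on the log2 scale between replicates 3 and 4 and replicates 1 and 2. The smallest F values belonged to Rab3a (0.0898, adjusted p = 0.975), Rab3b (0.278, adjusted p = 0.886) and Chga (0.400, adjusted p = 0.821).

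**Figure D4:**
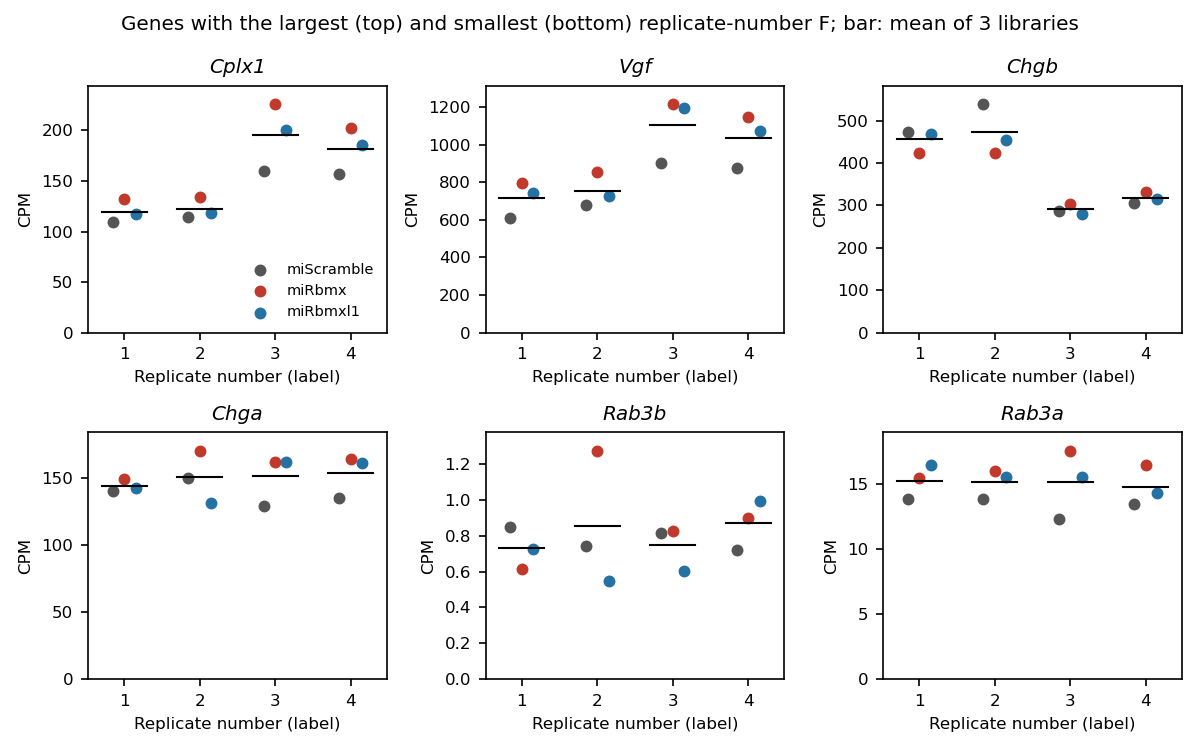
CPM of the 3 genes with the largest and the 3 with the smallest F for the replicate number, by number, with a point for each of the 12 libraries coloured by group and a bar at the mean of 3 libraries. Cplx1 and Vgf are higher and Chgb lower in replicates 3 and 4 in all groups, while Rab3a, Rab3b and Chga show no such step.

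A further 71 genes of the same pathways, written from general knowledge, were taken as a wider frame, of which 51 were tested. In miRbmx 5 of the 51 were called (9.80%, 4 higher and 1 lower) and in miRbmxl1 3 (5.88%, all higher). These shares are near those of all genes, 8.35% and 4.46%. Without the block 0 of the 51 were called in either, with lowest adjusted p of 0.284 and 0.369. Syngr2, the non-neuronal synaptogyrin, rose by 0.48 ± 0.07 (adjusted p = 0.00241) in miRbmx and by 0.39 ± 0.07 (adjusted p = 0.00682) in miRbmxl1. The endosomal syntaxin Stx6 rose by 0.26 ± 0.07 (adjusted p = 0.0326) and 0.29 ± 0.07 (adjusted p = 0.0329), and the synaptotagmin Syt5 by 0.30 ± 0.09 (adjusted p = 0.0424) and 0.33 ± 0.09 (adjusted p = 0.0434). The dynamin Dnm3 fell by 0.64 ± 0.14 in miRbmx (adjusted p = 0.0132) and was not called in miRbmxl1 by edgeR (adjusted p = 0.0787), while DESeq2 called it there (adjusted p = 0.0298). By list, 3 of 24 fusion and priming genes, 2 of 15 membrane and recycling genes and 0 of 12 other dense-core genes were called in miRbmx, the last with 5 at an unadjusted p under 0.05. In miRbmxl1 the counts were 2, 1 and 0, the last with 1 at an unadjusted p under 0.05. DESeq2 called 4, 2 and 2 genes of these lists in miRbmx, beside 11.5% of all genes. In miRbmxl1 it called 4, 2 and 1, beside 7.28% of all genes.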

How the data were processed

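The authors deposited raw counts of reads per Ensembl gene, 1 file per library, without normalization. Per the submitters' processing notes, the tools include STAR 2.5.3a, HTSeq 0.6.1p1 and DESeq2 1.16.1, with the build mm10. The strand setting and annotation release are not given in the sources used here. Rows that name no gene held 52.3% to 57.4% of each file's total and were left out. Names and positions came from GENCODE M21 (GRCm38), which holds 55141 of the 55401 identifiers.

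The tests used edgeR 4.0.16 (R 4.3.3) with filterByExpr (minimum count 10, minimum total 15), TMM scaling, and a quasi-likelihood F-test with group and replicate number as terms, fitted to all 12 libraries and 17569 genes. Calls were made where the p after Benjamini-Hochberg adjustment was under 0.05. Errors of log2 differences are standard errors, and CPM use TMM-scaled library sizes. The code was tested on simulated data.

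The number was used as a block because same-numbered libraries of different groups deviated together. After centring log2 CPM on group means, r across genes was 0.195 to 0.524 in all 12 such pairs. Pairs of different numbers within replicates 1 and 2, or within 3 and 4, also deviated together, with r of 0.1 to 0.431. Pairs across these sets had r of -0.573 to -0.129. The r values thus show a split of replicates 1 and 2 from 3 and 4. They do not resolve a pairing by single number, since the same-number and different-number ranges within the sets overlap. The pairing comes from the values, not from the labels. The dispersion was 0.00929 with the block and 0.0362 without it.

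The genes, the lists and the tests were chosen with earlier results of these data known. Some genes of the wider lists are counted but not reported by name here. Values per library are given for called genes, the highest gene of each role class, the 3 largest differences in each knockdown, and the 3 largest and 3 smallest F values for the replicate number. Alternatives were the fit without the block, RLE and upper-quartile scaling, 2 other filters, DESeq2 1.42.0, replicates 1 and 2 or 3 and 4 alone, and leaving out each number or library.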

Additional observations from a re-analysis of the deposited data

Results flagged for a closer look

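In 3 of the 102 sets of 4 libraries (34 genes in 3 groups), 1 library lay far from the other 3 of its group, where chance gives about 1 in 20. Snap25 was at 185 CPM in miRbmxl1 replicate 2, against 142 to 148 in the others, and without that library its difference from miScramble was -0.30 ± 0.07 (adjusted p = 0.0188). Vamp2 was at 89.1 CPM in miScramble replicate 4, against 93.4 to 93.6. Rab3c was at 126 CPM in miRbmx replicate 4, against 144 to 145.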

How the results depend on the processing

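Without the replicate block, 0 of the 34 genes were called in miRbmx and 0 in miRbmxl1, against 7 and 4 with it. Within replicates 1 and 2 alone the counts were also 0 and 0, beside 0.0230% and 0.172% of all genes. In that fit 9 and 5 genes had an unadjusted p under 0.05, and the cause was not tested. Leaving out 1 library or 1 replicate number gave 2 to 9 calls in miRbmx and 1 to 5 in miRbmxl1. The lowest were 2 (Vgf and Pcsk1n) without replicate 3 in miRbmx, and 1 (Slc18a2) without replicate 1, 3 or 4 in miRbmxl1. Within replicates 3 and 4 alone, 10 and 6 genes were called, beside 10.1% and 5.53% of all genes in that fit. Of them, 5 and 3 were also called in all libraries. The comparison of the knockdowns gave 0 calls in all 24 alternatives. For the replicate number, calls ranged from 18 to 22 over the other scalings and filters. Each called gene kept its sign in 24 of 24 alternatives. Of the uncalled values described by library, those of Chga, Rab3b, Slc18a1, Sv2c, Syt4, Chgb and, in miRbmxl1, Unc13a crossed 0 in 1 or both comparisons when some libraries were left out. Over 718 alternative values, 98 lost a call and 12 gained one. Other scalings moved the median of all genes by less than 0.1 on the log2 scale. Rab3b and Slc18a1, at the bottom of the tested genes, had the largest standard errors of the set, and the part of depth in this was not tested.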

Other observations

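The REST repressor complex silences many neuronal secretion genes outside neurons, and 8 genes of the complex and its partners were tested. Rcor3, a CoREST subunit, was at 145, 137, 146 and 156 CPM in miScramble replicates 1 to 4, at 122, 126, 116 and 129 in miRbmx, and at 111, 114, 122 and 136 in miRbmxl1. The miRbmx and miRbmxl1 libraries all lay below the miScramble libraries, by -0.24 ± 0.06 (adjusted p = 0.0207) and -0.27 ± 0.06 (adjusted p = 0.0175), and without the block the adjusted p were 0.290 and 0.369. Rcor3 was the single gene of the 8 called by edgeR in each knockdown (12.5%), beside 8.35% and 4.46% of all genes. It was also the single gene without overlap, against 8.07% and 5.67% of all genes. Rest itself was at 33.1, 31.1, 40.7 and 35.3 CPM in miScramble, at 19.6, 20.1, 36.4 and 36.6 in miRbmx, and at 20.02, 30.3, 39.99 and 30.0 in miRbmxl1. Its differences, -0.36 ± 0.12 (adjusted p = 0.0831) and -0.25 ± 0.12 (adjusted p = 0.281), were not called by edgeR, while DESeq2 called Rest in miRbmx (adjusted p = 0.0246). In miRbmx, replicates 1 to 3 were lower than the scramble libraries of their number and replicate 4 was higher. The other 6 genes were not called in either knockdown by edgeR. Of the markers of sympathetic neuroblasts, 0 of 7 tested were called by edgeR in either knockdown, beside 8.35% and 4.46% of all genes. By edgeR, 2 and 4 had an unadjusted p under 0.05. DESeq2 called 1 in miRbmx and 3 in miRbmxl1, beside 11.5% and 7.28% of all genes.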
